A study of Mus musculus with 2 samples.

Results

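The genes described here are 6 CC chemokines that leukocytes secrete, Ccl3, Ccl4, Ccl5, Ccl6, Ccl9 and Ccl24, and the receptor Ccr1, which binds several of them. They were taken by gene symbol and make up 7 of the 32285 gene rows of the count matrices. Their levels were read in non-parenchymal liver cells (all but the hepatocytes) by droplet single-cell RNA sequencing. All animals, mice of genotype Mfap2+/+ or Mfap2-/-, had received carbon tetrachloride (CCl4), a toxin that damages hepatocytes and scars the liver, by injection into the peritoneum for 8 weeks. Each genotype had 1 library, called wild type and knockout below. Strain, sex, age and the number of animals behind a library are not given in the labels. No untreated animals were among the samples used here.

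Chemokines are small secreted proteins that attract cells along a gradient, and their receptors couple to inhibitory G proteins. Ccl3 and Ccl5 are ligands of Ccr1, and Ccl4 is a close relative of Ccl3. Ccl6 and Ccl9 are a pair of related mouse ligands of Ccr1, and Ccl24 (eotaxin-2) acts on Ccr3, the receptor of eosinophils. In injured liver these signals draw monocytes, neutrophils and lymphocytes into the tissue, and Kupffer cells, the resident macrophages, are a known source of several of them.

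The wild-type library held 11783 cell barcodes with a median of 4685 unique molecular identifiers (UMIs, tags that each mark 1 captured RNA molecule). The knockout library held 12872 barcodes with a median of 6511. After removal of poor cells and likely doublets, 10336 and 11428 cells remained, and 31 barcodes occurred among the cells kept in both libraries. Mfap2 itself had 211 UMIs in the wild-type cells kept and 2 in the knockout cells, in the direction of the labels. Cells were named from marker genes alone, none of them among the 7 genes, and each name carries "-like" for that reason. Of the cell types, 15 had at least 50 cells in each library, and 15.8% of wild-type and 15.6% of knockout cells met no gate. Macrophage-like cells were divided into Kupffer-like cells, which carried Clec4f, scar-associated macrophage-like cells, and a remainder. With 1 library per genotype, genotype, animal and library preparation cannot be told apart, and no test between genotypes was possible. Intervals are 95% counting intervals, which leave out the spread between cells and between animals.

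On mouse build GRCm38, 5 of the 6 ligand genes lie close together on chromosome 11. Ccl5 is at chr11:83525778-83530518, Ccl9 at chr11:83572919-83578636, Ccl6 at chr11:83587882-83593087 and Ccl3 at chr11:83647844-83649355, all on the reverse strand. Ccl4 follows on the forward strand at chr11:83662584-83664683. Ccl24 lies apart at chr5:135569937-135573049 and Ccr1 at chr9:123962124-123968692, both on the reverse strand. All 7 are protein-coding genes, and 6 of them overlapped no other annotated gene. Ccl6 lies wholly within E230016K23Rik, a non-coding gene on the opposite strand, which had 63 UMIs in wild-type and 35 in knockout Kupffer-like cells against 10698 and 4193 for Ccl6. Whether the authors' counting used strand is not given in the sources used here, so a small part of the Ccl6 count may belong to that gene.

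Ccl6 and Ccl9 had like profiles across the cell types, so the 250 bases before their start sites are shown, from RefSeq on GRCm38.p6. Both are written 5′ to 3′ on the reverse strand of the chromosome, and capitals mark the longest run of letters that the pair shares, 13 bases long.
Ccl6, chr11:83593088-83593337: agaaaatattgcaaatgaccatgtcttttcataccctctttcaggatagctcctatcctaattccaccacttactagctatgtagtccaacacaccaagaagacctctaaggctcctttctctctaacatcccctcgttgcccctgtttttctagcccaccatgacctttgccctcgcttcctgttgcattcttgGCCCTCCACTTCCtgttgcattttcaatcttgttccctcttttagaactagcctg
Ccl9, chr11:83578637-83578886: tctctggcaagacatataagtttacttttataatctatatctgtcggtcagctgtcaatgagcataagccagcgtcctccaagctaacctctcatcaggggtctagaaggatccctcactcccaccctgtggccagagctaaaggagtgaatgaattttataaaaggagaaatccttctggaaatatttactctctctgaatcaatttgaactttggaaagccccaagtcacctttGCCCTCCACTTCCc
The run begins 55 bases before the Ccl6 start and 14 bases before the Ccl9 start. It occurs on either strand in 5 of the 32851 mouse promoter windows of 250 bases (0.0152%), those of Ccl6 and Ccl9 included. The run was picked from this pair, so that share is not a test of the match. Its last 6 letters are the reverse complement of GGAAGT, an ETS-family core and 1 of 5 motifs searched on both strands, which 19.7% of the windows hold. The Ccl3 window also holds 1 such core, and its longest run shared with either gene is 8 bases. Of the other motifs, the Ccl9 window holds the TATA box TATAAA (in 12.4% of windows), the AP-1 site TGANTCA (6.75%) and an NF-kappaB-like site (1.41%), and the Ccl3 and Ccl6 windows hold none of them. The C/EBP-like site TTGCNNAA (9.56%) is in none of the 3. These matches describe letters only.

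Free RNA in droplets can put UMIs of a gene into cells that do not express it. B-like, endothelial-like, mesenchymal-like and cholangiocyte-like cells were pooled as a measure of that background, in UMIs per 1000000 UMIs of the cells (CPM). Ccl4 stood at 203 CPM in the wild type and 188 CPM in the knockout in these cells. The background of Ccl5 was 164 and 113 CPM, that of Ccl3 69.2 and 63.2 CPM, and that of Ccl6 77.0 and 40.7 CPM. Ccl9 had 13.6 and 10.8 CPM, Ccl24 1.39 and 1.07 CPM, and Ccr1 3.0 and 4.61 CPM. In the wild type, Ccl6 ranged from 55.9 to 93.0 CPM among these 4 cell types. Levels below are read against this background, and a cell type whose level did not exceed it beyond counting error is not called a source. The bar was the highest level among these 4 cell types, which belong to the 15 and so could not pass it.

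**Figure D1:**
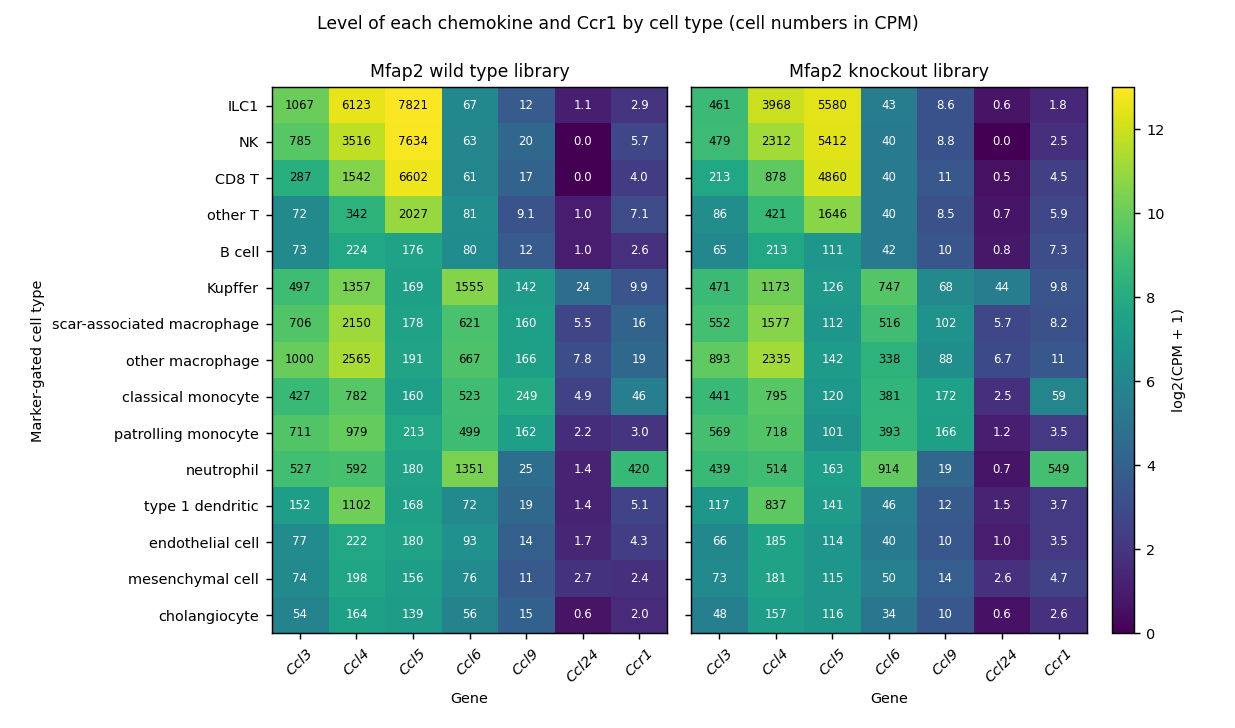
Level of the 6 chemokines and Ccr1 (columns) in the 15 marker-gated cell types (rows) of the wild-type and knockout libraries; numbers are CPM and colour is log2(CPM + 1). Ccl5 was brightest in the lymphocyte rows at the top, Ccl6 in Kupffer-like cells and neutrophils, and Ccr1 in neutrophils, at 420.0 and 549 CPM.

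Ccl3, a ligand that many activated leukocytes release, had the widest spread of sources together with Ccl4. Remaining macrophage-like cells, those neither Kupffer-like nor scar-associated, held 999.5 CPM of Ccl3 in the wild type and 893 CPM in the knockout, the highest mean over both libraries. Type 1 innate lymphoid (ILC1)-like cells, tissue-resident relatives of natural killer cells, came next with 1067 and 461 CPM. Their range overlapped that of the macrophages, so the order of these cell types is not fixed by 2 libraries. Patrolling monocyte-like cells had 711 and 569 CPM, natural killer (NK)-like cells 785 and 479 CPM, and scar-associated macrophage-like cells 706 and 552 CPM. Kupffer-like cells had 497 and 471 CPM, neutrophil-like cells 527 and 439 CPM, and classical monocyte-like cells 427 and 441 CPM. In all, 10 of the 15 cell types, which include the 4 background types, exceeded the background of Ccl3 in both libraries. Remaining T-like cells, which met none of the CD4, CD8 and gamma-delta gates, were not among them, at 71.6 and 85.8 CPM.

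Ccl4, the close relative of Ccl3, was led by ILC1-like cells, at 6123 CPM in the wild type and 3968 CPM in the knockout. NK-like cells followed with 3516 and 2312 CPM, and the 2 ranges did not overlap. Remaining macrophage-like cells had 2565 and 2335 CPM, within the range of the NK-like cells. Cytotoxic T cells also carried this ligand: CD8 T-like cells had 1543 CPM in the wild type and 878 CPM in the knockout. Among the types of too few cells to enter the order, plasmacytoid dendritic-like cells stood at 8113 CPM (33 wild-type cells) and 6422 CPM (87 knockout cells). Type 2 conventional dendritic-like cells stood at 5280.4 CPM (27 cells) and 4932 CPM (62 cells). In both of these, 5 cells held a large part of the wild-type UMIs, 41.7% and 59.3%. In all, 11 of 15 cell types exceeded the Ccl4 background in both libraries, and the others were the 4 background types themselves.

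Across the 15 cell types the profile most like that of Ccl3 was Ccl4, among 6817 candidate genes. The Pearson correlation of log2(CPM + 1) was 0.89 among wild-type and 0.85 among knockout cells, over cell types that share a library and its free RNA. Within cell types, the 2 ligands also met in the same cells. With each cell thinned to 1000 UMIs, 80.4% of wild-type remaining macrophage-like cells with a Ccl3 UMI also had a Ccl4 UMI, against 58.6% of those without. The knockout values were 80.5% and 57.9%. In the background cell types the 2 values ran in both directions. They were 19.8% and 19.9% in wild-type B-like cells, 28.8% and 19.0% in wild-type endothelial-like cells, and 5.88% and 16.7% in knockout mesenchymal-like cells, the last over 17 cells with a Ccl3 UMI.

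Ccl5 (RANTES), a ligand that cytotoxic lymphocytes store and release, was at its highest in lymphocyte-like cells. ILC1-like cells had 7821 CPM in the wild type and 5580.5 CPM in the knockout. NK-like cells had 7634 and 5412 CPM and CD8 T-like cells 6602 and 4860.1 CPM, with ranges that overlapped between neighbours. NK-like cells had the highest mean under 4 alternatives. Remaining T-like cells had 2027 and 1646 CPM and stood apart from CD8 T-like cells. Of the ILC1-like cells, 99.7% (wild type) and 99.5% (knockout) had a Ccl5 UMI, and with each cell thinned to 1000 UMIs 97.0% and 94.1% still did. In B-like cells the thinned shares were 17.1% and 10.02%. Macrophage, monocyte and neutrophil-like cells lay close to the background, between 101 and 213 CPM. Of these, remaining macrophage-like cells exceeded it beyond counting error in both libraries, by 1.16 and 1.25 times. Migratory dendritic-like cells, the type that travels to lymph nodes, were too few to enter the order, with 25 and 39 cells, and held 2962 and 4977 CPM. The genes with the profiles most like Ccl5 were Gzmb and Ifng, which encode granzyme B and interferon-gamma (correlations of 0.99 and 0.99 for Gzmb, wild type and knockout, and 0.99 and 0.98 for Ifng).

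Ccl6, a myeloid ligand of Ccr1, had its highest mean level in Kupffer-like cells, at 1555 CPM in the wild type and 747 CPM in the knockout. Neutrophil-like cells had 1351 and 914 CPM, so Kupffer-like cells were higher in the wild-type library and neutrophil-like cells were higher in the knockout library. Neutrophil-like cells had the highest mean under 5 alternatives. Of these, a lead of 3 markers and leaving out cells next to the gate gave values equal to each other. Neutrophil-like cells then had 1509 and 1056 CPM, and Kupffer-like cells 1557 and 749 CPM. Remaining macrophage-like cells had 667 and 338 CPM, scar-associated macrophage-like cells 621 and 516 CPM, and the 2 monocyte types between 381 and 523 CPM. These 6 myeloid types exceeded the background in both libraries. No lymphoid type of the 15 did. Type 1 conventional dendritic-like cells, also myeloid, lay at background with 71.8 and 46.4 CPM.

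Ccl9, the neighbour of Ccl6 on the chromosome, was at its highest in classical monocyte-like cells, with 249 CPM in the wild type and 172 CPM in the knockout. Patrolling monocyte-like cells had 162 and 166 CPM and did not overlap them. The 3 macrophage types followed, from 142 to 166 CPM in the wild type and from 67.9 to 102 CPM in the knockout. Neutrophil-like cells, a main holder of Ccl6, had 24.7 and 18.5 CPM of Ccl9, above the background in the wild type only. The profiles of Ccl6 and Ccl9 over the 15 cell types had correlations of 0.81 and 0.82. Those of Ccl6 and Ccl24 had 0.77 and 0.62. Ccl9 was not among the 3 genes most like Ccl6, which were Igsf6 (0.98 and 0.99), Arg2 and Gm5150. Genes most like Ccl9 were Clec4a3, Ms4a6c and Csf1r, of which Csf1r encodes the growth factor receptor of macrophages and monocytes (0.94 and 0.94).

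Ccl24 was scarce, with 365 UMIs among all wild-type and 483 among all knockout cells. Kupffer-like cells had 168 of the wild-type (24.4 CPM) and 248 of the knockout UMIs (44.2 CPM), and no other cell type overlapped that range. Remaining macrophage-like cells had 7.76 and 6.66 CPM and scar-associated macrophage-like cells 5.49 and 5.71 CPM. Few cells held most of it. The richest 10% of Kupffer-like cells carried 83.3% of the wild-type and 76.6% of the knockout UMIs, and the 5 richest cells 17.9% and 32.3%. At least 1 UMI was seen in 14.9% of wild-type and 23.7% of knockout Kupffer-like cells, against 0.352% and 0.407% of B-like cells, whose median depths were 3426 and 4828 UMIs compared with 11891 and 13836. NK-like cells had no Ccl24 UMI in either library.

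Ccr1, the receptor, was found above all in neutrophil-like cells, at 420.0 CPM in the wild type and 549 CPM in the knockout. This was 140 and 119 times the background. Classical monocyte-like cells were the next, at 45.8 and 59.1 CPM, and did not overlap the neutrophils. Remaining macrophage-like cells had 19.2 and 10.7 CPM, Kupffer-like cells 9.88 and 9.80 CPM, and the lymphoid types from 1.78 to 7.29 CPM. The genes most like it in profile were Mmp8, Cd33 and Slfn4, of which Mmp8 encodes neutrophil collagenase (0.95 and 0.96). Kupffer-like and remaining macrophage-like cells, which held the ligands Ccl3 and Ccl6 above the background, had little Ccr1. Neutrophil-like cells, summed as a class, held both ligands as well as Ccr1. Their Ccl3 level, 527 CPM in the wild type and 439 CPM in the knockout, was close to that of Kupffer-like cells (497 and 471 CPM). Whether single neutrophil-like cells held Ccl3, Ccl6 and Ccr1 together was not tested.

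Ccrl2, a chemokine-binding receptor that does not signal, had 1378 and 1357 CPM in neutrophil-like cells. Ccr3, the receptor of Ccl24, had at most 3.20 CPM in the 15 cell types, and no cell met the gate for eosinophils, the cells known to carry it.

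**Figure D2:**
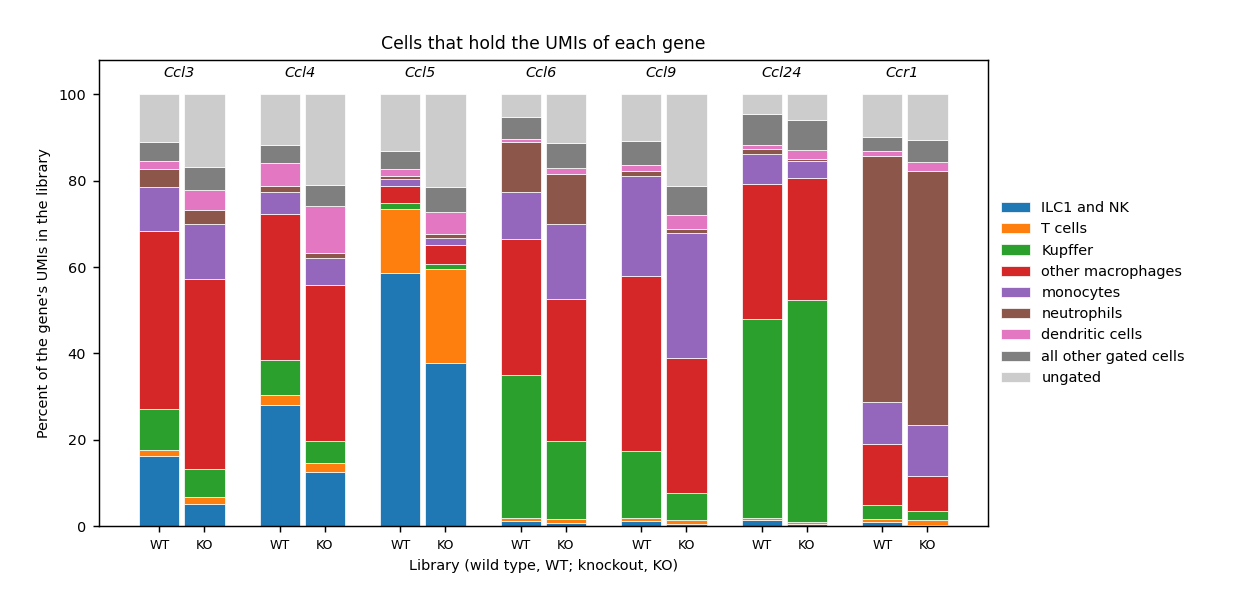
Share of each gene's UMIs (vertical axis, percent of the UMIs of the gene in the library) that lay in each kind of cell, for the wild-type (WT) and knockout (KO) libraries; unlike CPM, this counts how many cells of a kind there were. ILC1-like and NK-like cells held 58.6% of wild-type and 37.7% of knockout Ccl5 UMIs, and neutrophils 57.0% and 58.8% of Ccr1 UMIs.

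The cells that supplied most of a ligand's UMIs were set by level and by number together. ILC1-like cells numbered 609 of the wild-type cells (5.89%) and 372 of the knockout cells (3.26%), a difference between 2 libraries without replicates. Together with NK-like cells they held 58.6% of wild-type and 37.7% of knockout Ccl5 UMIs. For Ccl4 these shares were 28.1% and 12.5%, and for Ccl3 16.2% and 5.16%. The part held by remaining and scar-associated macrophage-like cells was higher in the knockout for both, from 33.7% to 36.1% of Ccl4 and from 41.2% to 43.8% of Ccl3. That of dendritic-like cells was also higher, from 5.34% to 11.1% of Ccl4, from 1.81% to 4.68% of Ccl3 and from 1.65% to 5.24% of Ccl5. T-like cells held 14.8% and 21.8% of Ccl5 UMIs. The parts of Kupffer-like and neutrophil-like cells in Ccl3 and Ccl4 were lower in the knockout. Kupffer-like cells, 583 and 410 in number, accounted for 33.1% (wild type) and 18.1% (knockout) of Ccl6 UMIs, while their part of Ccl24 was 46.0% and 51.3%. Cells that met no gate held a larger part of every ligand in the knockout, for example 13.1% and 21.5% of Ccl5, and they had median depths of 2564 and 4944 UMIs.

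**Figure D3:**
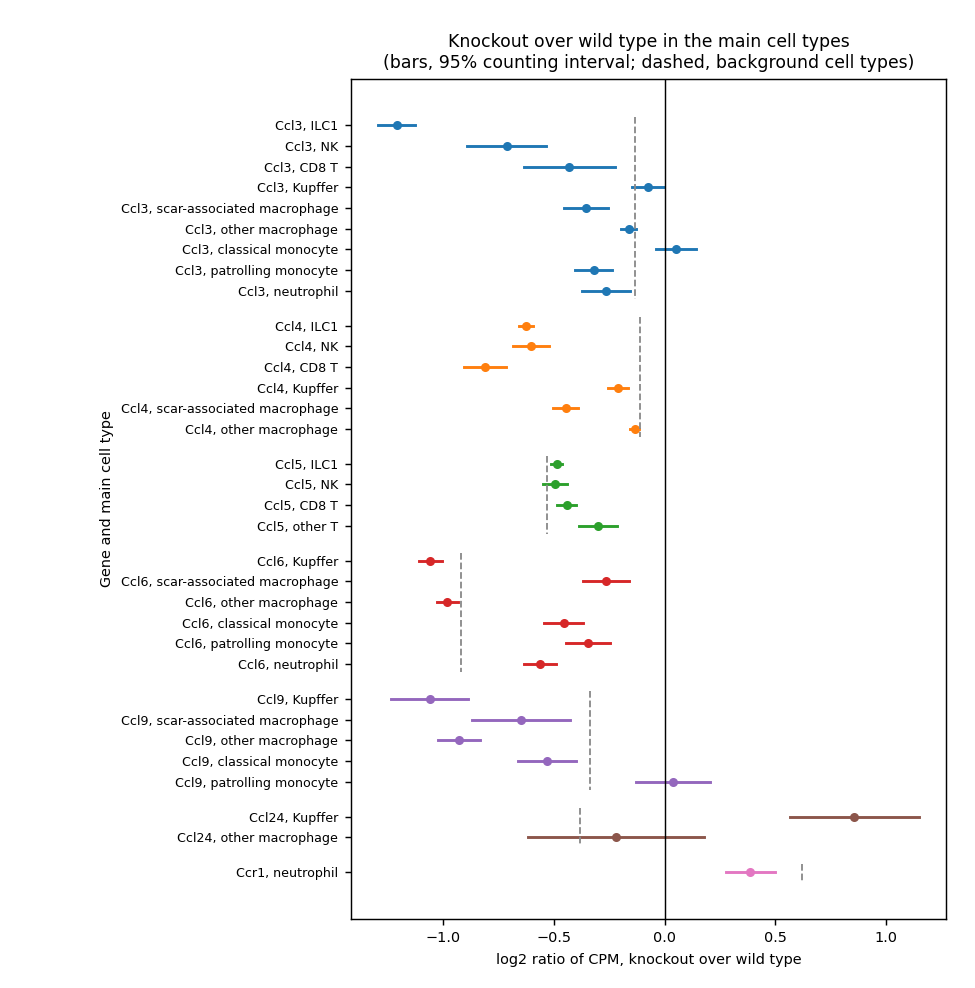
Log2 ratio of CPM, knockout over wild type (horizontal axis), for each gene in the cell types that reached 25% of its highest level; points are ratios, bars 95% counting intervals, and dashed grey lines the same ratio in the pooled background cell types. Ccl3 in ILC1-like cells lay at -1.21, Ccl6 in Kupffer-like cells at -1.06, Ccl24 in Kupffer-like cells at 0.86 and Ccr1 in neutrophils at 0.39.

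Between the libraries, the ligands were mostly lower in the knockout, and Ccl24 and Ccr1 were higher in their leading cell types. Ratios are scaled to the UMI total of a cell type; scaling by the median of ratios over genes instead lowers them by 0.14 in ILC1-like, 0.12 in Kupffer-like and 0.12 in neutrophil-like cells. In ILC1-like cells Ccl3 had a log2 ratio of -1.21 (-1.29 to -1.13), Ccl4 one of -0.63 (-0.66 to -0.60) and Ccl5 one of -0.49 (-0.51 to -0.46). NK-like cells had -0.71, -0.60 and -0.50 for the same genes, and CD8 T-like cells -0.43, -0.81 and -0.44. All 9 of these intervals lay below 0, but Ccl3 in CD8 T-like cells turned to 0.12 when the gates were read on thinned cells and to 0.014 in clusters. The background of Ccl5 was itself lower in the knockout, with a log2 ratio of -0.53. Once the background was subtracted, Ccl5 in ILC1-like cells remained at -0.49 and Ccl3 was at -1.33. Heat-shock and dissociation-induced genes moved little in ILC1-like cells, with a summed level of 17024 CPM in the wild type and 17691 CPM in the knockout, and 1 of 15 of them at least 2-fold higher (Hspa1a), where 3.93% of all genes were. Their part in the lower ligand levels was not tested. The genes of Kupffer identity, with Cd5l and Id3 the highest of them, summed to 415 and 252 CPM in the same cells. How much of that sum was free RNA was not tested.

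In Kupffer-like and remaining macrophage-like cells, Ccl6 and Ccl9 lay further below 0 than Ccl3 and Ccl4. Ccl6 in Kupffer-like cells had a log2 ratio of -1.06 (-1.11 to -1.01), and in remaining macrophage-like cells one of -0.98 (-1.03 to -0.93). For Ccl9 the ratios were -1.06 (-1.24 to -0.89) and -0.93 (-1.02 to -0.83) in the same cells. Ccl3 in Kupffer-like cells was at -0.08 (-0.15 to -0.0018), and turned to 0.029 when the gates were read on thinned cells. Ccl4 in Kupffer-like cells was at -0.21 (-0.26 to -0.16). Remaining macrophage-like cells had -0.16 for Ccl3 and -0.14 for Ccl4. Scar-associated macrophage-like cells had another order, with -0.36 (-0.45 to -0.26) for Ccl3, -0.45 (-0.50 to -0.39) for Ccl4 and -0.27 (-0.37 to -0.16) for Ccl6, and the Ccl3 value turned to 0.095 when the gates were read on thinned cells. Ccl6 was lower by less in neutrophil-like cells (-0.56), classical monocyte-like cells (-0.46) and patrolling monocyte-like cells (-0.35). The same ratio in cells that hold Ccl6 only as background was -0.92 (-1.03 to -0.81). After that background was subtracted, the Kupffer-like value was -1.07 and the neutrophil-like value -0.54. The macrophage-like cells also fell into several clusters whose cell numbers differed between the libraries. The largest had 1380 wild-type and 429 knockout cells, and the next 445 and 1087. The part of this make-up in the macrophage ratios was not tested.

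Of 10 genes of Kupffer identity, 8 were lower and 2 higher in knockout Kupffer-like cells, with a median log2 ratio of -0.55. The list holds all 6 markers of the Kupffer gate. Its values in the macrophage types therefore depend in part on how those cells were chosen, unlike the shares of all genes. Of the 10, 2 were at least 2-fold lower there (Marco and Cd163), as were 1.39% of 12109 genes, and the list's summed level went from 13787 to 8842 CPM. Clec4f, the defining marker, was at 775 CPM in the wild type and 985 CPM in the knockout in these cells. In remaining macrophage-like cells 5 of the 10 were at least 2-fold lower, where 1.24% of all genes were, with a median of -1.01. The list was also lower in other cells, with medians of -0.85 in B-like, -0.73 in endothelial-like and -0.75 in neutrophil-like cells. A Marco UMI was present in 58.8% of wild-type and 33.9% of knockout Kupffer-like cells. Among Kupffer-like cells without a Marco UMI, 240 wild-type and 271 knockout cells, the Ccl6 ratio was -1.01 and the Ccl9 ratio -1.26. Heat-shock and dissociation-induced genes summed to 22617 and 29434 CPM in Kupffer-like cells, with 4 of 15 at least 2-fold higher in the knockout, where 5.94% of all genes were, among them Bag3 (68.9 and 650.4 CPM) and Hsph1 (295 and 1458 CPM). The part of these differences in the Ccl6 and Ccl9 values was not tested.

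Not all sources of a ligand moved alike. Ccl9 in patrolling monocyte-like cells had a log2 ratio of 0.04 (-0.13 to 0.21), while classical monocyte-like cells had -0.53 (-0.66 to -0.40), which became -0.25 when each cell was thinned before summing. Ccl3 in classical monocyte-like cells was at 0.05 (-0.04 to 0.14) and Ccl4 there at 0.02 (-0.04 to 0.09), whereas patrolling monocyte-like cells had -0.32 and -0.45. These differences between cell types were not tested, since each rests on the same 2 libraries.

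Ccl24 in Kupffer-like cells was higher in the knockout, with a log2 ratio of 0.86 (0.57 to 1.15). It was the only ligand of the 6 whose ratio in its leading cell type was above 0, and it was 1.46 when each cell was thinned before summing. The shares after thinning rested on few cells, 14 of 572 wild-type and 25 of 404 knockout Kupffer-like cells. In remaining macrophage-like cells the ratio was -0.22, with an interval from -0.62 to 0.18 that includes 0.

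Ccr1 in neutrophil-like cells had a log2 ratio of 0.39 (0.28 to 0.50), and in classical monocyte-like cells one of 0.37 (0.10 to 0.64). Of the neutrophil-like cells, 60.9% (wild type, median depth 2293 UMIs) and 76.8% (knockout, 2777 UMIs) had a Ccr1 UMI. Thinned, the shares were 36.2% (33.2 to 39.2) and 44.9% (41.6 to 48.2), so the intervals did not overlap. The thinned shares in B-like cells were 0.268% and 0.996%. Remaining macrophage-like cells went the other way, with a log2 ratio of -0.84 (-1.12 to -0.57). In neutrophil-like cells the heat-shock and dissociation-induced genes summed to 22426 and 24053 CPM, with 5 of 15 at least 2-fold higher in the knockout (5.99% of all genes), and their part in the Ccr1 difference was not tested.

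**Figure D4:**
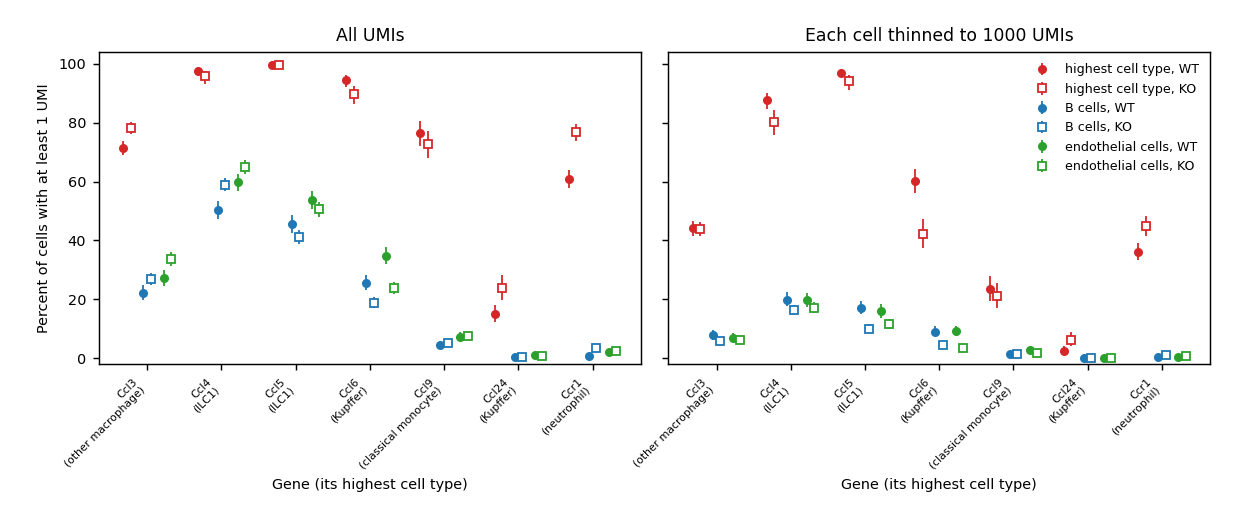
Percent of cells with at least 1 UMI of each gene, from all UMIs (left) and with each cell thinned to 1000 UMIs (right), in the gene's highest cell type and in B-like and endothelial-like cells; filled circles are wild type, open squares knockout, and bars 95% Clopper-Pearson intervals. Thinning brought Ccl3 in remaining macrophages to 44.0% and 43.9%, and left Ccr1 in neutrophils at 36.2% and 44.9%.

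Depth changed the reading of the shares. Remaining macrophage-like cells with a Ccl3 UMI made up 71.5% (wild type, median depth 7742 UMIs) and 78.3% (knockout, 11456.5 UMIs). After thinning, the shares were 44.0% and 43.9%. For Ccl6 in Kupffer-like cells the shares were 94.3% and 89.8% before and 60.3% and 42.3% after thinning, so the gap between the libraries was wider at equal depth. Ccl3 in ILC1-like cells gave 78.5% and 74.2% before and 45.8% and 25.7% after. Ccl9 in classical monocyte-like cells gave 23.4% and 21.1% after thinning, with intervals that overlapped.

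Counts past 2-fold are set against the share of all genes in the 5 cell types that led a gene. In Kupffer-like cells 2 of the 7 genes, Ccl6 and Ccl9, were at least 2-fold lower in the knockout, where 1.39% of 12109 genes were, and none was at least 2-fold higher, where 5.94% were. In ILC1-like cells 1 of the 5 genes with at least 20 UMIs was at least 2-fold lower, Ccl3, where 1.5% of all genes were, and none at least 2-fold higher, where 3.93% were. None of the 7 passed that fold in remaining macrophage-like cells (1.24% lower and 5.19% higher among all genes) or in classical monocyte-like cells (0.806% and 4.74%), nor any of 6 in neutrophil-like cells (1.35% and 5.99%). Other cell types also had genes of the 7 past 2-fold, at levels at or near the background. Ccl6 was at -1.21 in endothelial-like and -1.03 in remaining T-like cells. Ccl5 was at -1.08 in patrolling monocyte-like cells, Ccl9 at -1.18 in NK-like cells and Ccr1 at 1.47 in B-like cells. Of the 15 cell types, 6 had all tested genes of the 7 lower in the knockout. In remaining macrophage-like cells 7 of 7 genes were below a ratio of 1, with a median log2 ratio of -0.43, but the Ccl24 interval included 0 and Ccl5 turned to 0.095 after background subtraction. Among all 14058 genes tested there, 40.9% were below it and the median was 0.11. In ILC1-like cells all 5 were lower, with a median of -0.63 against 0.14 for all genes, of which 37.5% were lower. The least one-sided types were classical monocyte-like cells, with 4 of 7 genes lower, patrolling monocyte-like and mesenchymal-like cells, with 4 of 6, and remaining T-like cells, with 3 of 5. The genes share libraries, and Ccl6 and Ccl9 were at background in ILC1-like cells, so these counts describe the 2 libraries and are not a test.

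Other genes of the pathway are read against the same shares of all genes. Of 17 genes of signalling below chemokine receptors, such as the G protein subunit Gnai2, the migration factor Dock2 and the brake Rgs1, 0 differed 2-fold in ILC1-like, Kupffer-like, neutrophil-like or remaining macrophage-like cells. Gnai2 had 955 and 692 CPM in neutrophil-like cells and Dock2 961 and 1281 CPM. Of 15 targets and regulators of NF-kappaB, the factor that drives many chemokine genes, 0 differed 2-fold in Kupffer-like or ILC1-like cells. By direction alone, 12 of 15 were lower in Kupffer-like cells (40.3% of all genes) and 11 of 15 in ILC1-like cells (37.5%). The medians there were -0.18 and -0.17. In neutrophil-like cells 4 of 15 were lower (41.1%). In remaining macrophage-like cells 1 was at least 2-fold lower (Sod2, against 1.24% of all genes), and in neutrophil-like cells 1 was at least 2-fold higher (Cd83, 91.7 and 214 CPM, against 5.99%). Tnf, an inflammatory cytokine of that list, had 170 and 87.4 CPM in Kupffer-like cells, a log2 ratio of -0.96. Among 14 other CC ligands, 5 had enough UMIs in Kupffer-like cells, and 1 of them was at least 2-fold lower there: Ccl7, a monocyte attractant, went from 153 to 61.8 CPM. In ILC1-like cells 4 of these ligands had enough UMIs, Ccl25, Ccl2, Ccl7 and Ccl12, and 2 of the 4 were at least 2-fold lower (1.5% of all genes). In remaining macrophage-like cells 2 of 7 were at least 2-fold higher (5.19%). In neutrophil-like cells 1 of 4 passed in each direction (1.35% lower and 5.99% higher). The list summed to only 46.0 and 39.9 CPM in ILC1-like and 43.7 and 36.0 CPM in neutrophil-like cells. In mesenchymal-like cells, a background type, it summed to 662 and 182 CPM. The part of free RNA in these ligand counts was not tested. Among 8 other CC receptors, 2 of 4 were at least 2-fold higher in Kupffer-like cells (5.94% of all genes), Ccr6 (6 and 17 UMIs) and Ccr9 (5 and 21 UMIs). The same 2 of 4 were so in remaining macrophage-like cells (5.19%). In neutrophil-like cells 1 of 2 was, Ccr7 (27 and 64 UMIs), and in ILC1-like cells 0 of 2. No CC receptor of that list was at least 2-fold lower in these 4 cell types. The Kupffer-like counts of Ccr6 and Ccr9 were small, and no background was subtracted. In endothelial-like cells, a background type, 2 of 5 receptors of the list were also at least 2-fold higher. The part of free RNA in these receptor counts was not tested.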

How the data were processed

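The deposited matrices hold the authors' raw UMI counts, 1 value for each gene in each cell barcode. The file headers name Cell Ranger 7.0.1, whereas the submitters' processing notes name Cell Ranger 3.1.0, Seurat and build mm10. Libraries were Chromium 3′ v3, per the labels' protocols. The deposited tables of genes and barcodes carry names with no measurement. The 7 genes, gene lists and markers were chosen with earlier results of these data known. The scoring rule of the gates was set after marker counts and clusters were seen, and the background cell types after the levels were seen.

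Barcodes under 200 genes or over 20% mitochondrial UMIs were dropped, 413 of wild type and 149 of knockout. The highest Scrublet scores (scanpy 1.11.5) were removed at 0.8% per 1000 cells, 1034 and 1295 cells. In the files, 40 barcodes occur in both libraries. Lists of 6 to 10 markers define each class. A marker counted as on where its level per 10000 UMIs reached the mean of the 2 library means. A cell took a class with at least 3 of its markers on and a lead of at least 2 over any other class. Kupffer-like cells needed Clec4f and at least 3 of 6 Kupffer markers, and scar-associated macrophage-like cells no Clec4f UMI and at least 4 of 6 markers. Of 18050 cells also named by Leiden clusters (32 clusters, resolution 1, leidenalg 0.10.2), 97.3% had the same class.

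UMIs were summed by class and library and scaled to 1000000 (CPM), with exact Poisson intervals. Ratios have exact conditional intervals and shares Clopper-Pearson intervals, all at 95%. Only the ratio intervals were tried on simulated data. Those data were drawn with counting error alone, so the trial does not cover the spread between cells. Counts of genes past 2-fold cover those with 20 UMIs or more in the 2 libraries together. A main cell type of a gene had at least 50 cells in each library and at least 25% of the gene's highest level in 1 library or more. Named genes were the 7 genes, Mfap2, and genes of the lists with high levels or past 2-fold. For some of the 7, up to 3 genes most like it in profile were also named, from those at 50 CPM or more in some cell type. List genes past 2-fold and Tnf were named after their values were seen. Shallower cells could not be thinned to 1000 UMIs, 917 of wild type and 598 of knockout. Of the 7 genes, 4 had a RefSeq promoter window in the table used, and 32158 of 32285 gene identifiers matched GENCODE M21 (GRCm38), which gave positions. Alternatives, 14 in all for the ratios, are given in the closing section. A further receptor gene is not reported here.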

Additional observations from a re-analysis of the deposited data

Results flagged for a closer look

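Ccl4 in remaining T-like cells had a log2 ratio, knockout over wild type, of 0.30 (0.11 to 0.49), from 342 and 421 CPM. By contrast, 9 other cell types outside the background types had ratios below 0 with intervals that left out 0. These were CD8 T-like cells (-0.81), ILC1-like cells (-0.63), NK-like cells (-0.60), scar-associated macrophage-like cells (-0.45), patrolling monocyte-like cells (-0.45), type 1 conventional dendritic-like cells (-0.40), Kupffer-like cells (-0.21), neutrophil-like cells (-0.20) and remaining macrophage-like cells (-0.14). Of the background types, endothelial-like cells were at -0.26 with an interval below 0. The level in remaining T-like cells was 1.69 (wild type) and 2.24 (knockout) times the background. After thinning, 22.8% and 22.9% of these cells had a Ccl4 UMI, so the shares were nearly equal. The 5 richest cells held 28.9% and 32.1% of their Ccl4 UMIs. The ratio in these cells was 0.74 after background subtraction and was not rerun under the other alternatives. The differences between cell types were not tested.

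Ccr1 had ratios of 0.39 in neutrophil-like cells and 0.37 in classical monocyte-like cells, but -0.84 in remaining macrophage-like cells, where 248 wild-type and 195 knockout UMIs were counted. This contrast was not tested either.

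Basophil or mast-like cells (7 wild-type and 2 knockout cells) entered no comparison. Their summed levels of 4 ligands stood above the background, while Ccl5 did not exceed it beyond counting error and no Ccl24 UMI was counted. Ccl3 was at 6491 CPM in the wild type and 3262 CPM in the knockout, and Ccl4 at 18607 and 11907 CPM. Ccl6 was at 3056 and 1493 CPM and Ccl9 at 1460 and 354 CPM.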

How the results depend on the processing

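No paired analysis was possible because each genotype had 1 library, and for the same reason no library could be left out. All 7 ratios in the leading cell types kept their sign in the alternatives run. Values outside the main counting interval follow; the cause was not tested. Scaling by the median of ratios gave Ccl3 -0.28, Ccl4 -0.76, Ccl5 -0.63, Ccl6 -1.17, Ccl9 -0.68 and Ccr1 0.26. Reading the gates on thinned cells gave Ccl3 -0.12, Ccl4 -0.72, Ccl5 -0.43 and Ccl6 -0.92, and turned the sign of Ccl3 in CD8 T-like (0.12), Kupffer-like (0.029) and scar-associated macrophage-like cells (0.095). Leiden clusters gave Ccl4 -0.72, Ccl5 -0.57 and Ccl9 -0.39, and Ccl3 in CD8 T-like cells 0.014. Thinning each cell before summing gave Ccl4 -0.69, Ccl6 -0.93, Ccl9 -0.25 and Ccl24 1.46. A mean over the CPM of single cells gave Ccl6 -0.94. Ccl4 was -0.66 with a lead of 1 marker and -0.66 without the 5 richest cells. Ccl5 was -0.54 with a lead of 3 markers, -0.55 with no doublets removed and -0.54 without cells next to the gate. Kupffer-like cells without a Marco UMI gave a Ccl3 ratio of 0.043. That setting, background subtraction and leaving out cells next to the gate were chosen after seeing the data. The reported leading cell type held for 5 to 7 of the 7 genes: NK-like cells led Ccl5 in 4 alternatives and neutrophil-like cells led Ccl6 in 5.

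With no filter on low counts, 4.05% of genes were at least 2-fold lower and 17.4% higher in Kupffer-like cells, 7.52% and 10.1% in remaining macrophage-like cells, 5.22% and 13.3% in ILC1-like cells, and 10.1% and 11.1% in neutrophil-like cells. Thinning each cell gave 3.05%, 2.27% and 2.40% lower in the first 3, and gates on thinned cells 2.27% in Kupffer-like cells. Depth limits Ccl24 most, with 365 and 483 UMIs in all.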
